A study of Homo sapiens with 32 samples.

Results

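The comparison described here sets 4 RNA sequencing libraries of HGrC1 cells exposed to 0.1 µM PFOS for 12 weeks against 4 vehicle control libraries of the same age. These 8 libraries, of 32 in the series, were chosen by their labelled dose and time. Of the 18583 genes with values, 12742 passed the filter on low counts at 12 weeks and are the genes tested. HGrC1 is a human granulosa cell line, immortalized and not luteinized, so the results come from 1 line. Separately frozen vials, 4 in all, were grown in flasks of their own, and the cells of each flask were split over the control (0.05% DMSO) and 0.01, 0.1 and 1 µM PFOS, with the compound or vehicle given anew at each passage. Libraries of one number were taken to descend from one vial. The error given below is the spread between libraries within the groups, each library from its own flask, with no term for the vial unless stated. For the shared medium with 10% serum, the labels name 100 nM estradiol and the methods of the study name 100 nM testosterone.

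Granulosa cells surround the oocyte, convert androgens into estradiol and answer gonadotropins and growth factors. Perfluorooctane sulfonate (PFOS) is a fluorinated surfactant that persists in the body and reaches follicular fluid. Several gene groups below are early transcriptional responders: immediate early genes encode short-lived mRNAs that rise within minutes of a growth factor or stress signal, MAP kinase feedback genes limit that signal, and targets of the aryl hydrocarbon receptor (AHR) include enzymes that oxidise foreign and steroid substrates.

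The total count per library lay between 18042991 and 18207214 at 0.1 µM and between 18216347 and 18553348 in the control, without overlap (exact two-sided permutation p = 0.0286). The mitochondrial share of counts was 5.18% to 5.88% and 4.79% to 5.38%. The controls did not behave as 1 uniform group. Over genes with a mean of at least 100 counts, control replicates 1 and 2 correlated with each other at r = 0.996 and control replicates 3 and 4 at r = 0.997 (log2 CPM, counts scaled to one fixed total per library), but pairs of one of the former with one of the latter gave 0.993. The exposed libraries correlated with control replicates 1 and 2 at 0.994 to 0.997 and with control replicates 3 and 4 at 0.989 to 0.991. Control replicate 3 also held 1737 counts of 14 liver transcripts, against 417 to 531 in the other controls and 435 to 501 in the exposed libraries. What set replicates 3 and 4 apart was not tested. The number of calls, several gene lists and many named genes are given with and without them. Where 1 value alone is given for a gene, it comes from the fit with all controls. Of the 136 genes called in that fit, 6 passed without replicates 3 and 4. Of the granulosa markers, GATA4, WT1 and NR2F2 were well counted (GATA4 at 2040 to 2427 counts in every library), whereas CYP19A1, AMHR2 and NR5A1 had 0 to 2 counts in each library.

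After 12 weeks, 136 of the 12742 genes tested, or 1.07%, differed between 0.1 µM PFOS and control at an edgeR adjusted p of 0.05. These comprised 67 genes that rose (0.526% of those tested) and 69 that fell (0.542%). Most changes were small. Among the genes that fell the median change was 1.41-fold, and among those that rose it was 1.29-fold. Only 12 of the 136 reached 2-fold (0.0942% of all tested), and 117, or 1.12% of the 10493 such genes, were well-counted genes (a mean of at least 100 counts over the 8 libraries) that changed by less. The plot of change against mean count shows these calls spread over the full range of abundance. The 4 exposed libraries lay wholly outside the 4 controls for all 69 genes that fell and for 62 of the 67 that rose, against 8.47% of all genes tested. The called genes were selected on these same libraries, so this separation is no independent evidence. For any gene separated in this way an exact two-sided permutation test of 4 against 4 gives p = 0.0286, the smallest it can give.

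**Figure D1:**
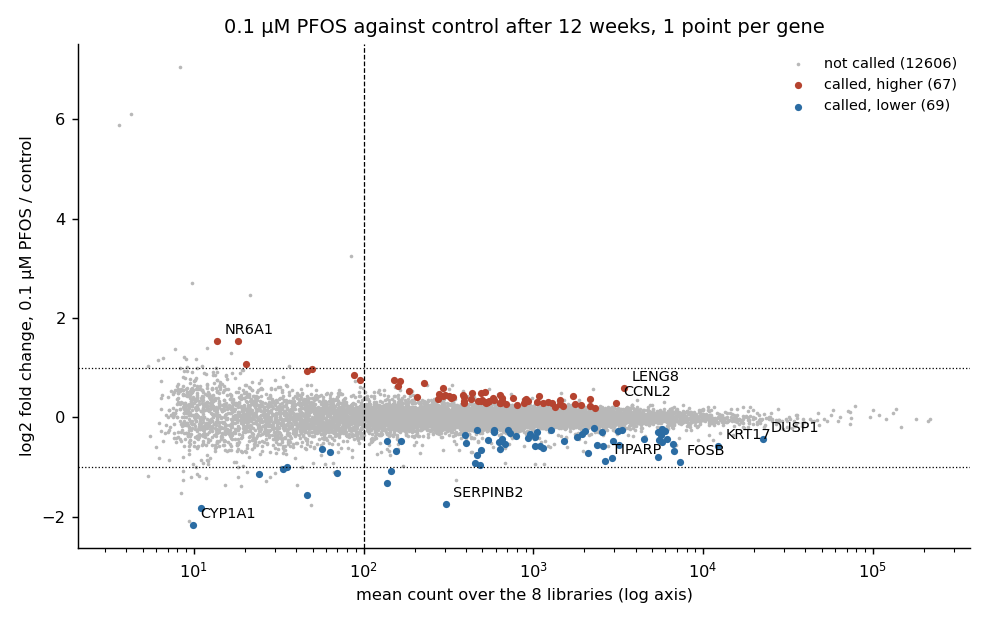
Log2 fold change of 0.1 µM PFOS over control at 12 weeks (vertical) against the mean count over the 8 libraries (horizontal, log axis), 1 point per gene tested. Dashed and dotted lines mark 100 counts and 2-fold, and most of the 67 red (higher) and 69 blue (lower) genes lie right of the first and between the others.

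The number of calls depended on single libraries, most of all on the controls. Without control replicate 3, 26 genes passed, and without control replicate 4, 35 passed, whereas 311 and 219 passed without control replicate 1 or 2. Without exposed replicates 2, 3 and 4 in turn, 42, 33 and 73 passed. Without vials 1 to 4 in turn, 315, 59, 4 and 11 passed. Without control replicates 3 and 4 together, 6 genes passed (0.0466% of 12869 tested), all lower at 0.1 µM: JUN, MAFF, TIPARP, ATF3, ADAMTS1 and CITED2. Without control replicates 1 and 2 instead, 1251 genes (9.72%) passed. Each of the 136 genes retained its sign in the fits without control replicate 3, without control replicate 4, and without either pair of controls. For the 69 genes that fell and 62 of the 67 that rose, the exposed libraries lay outside every control. For these the sign was all but fixed in advance. The genes were selected with all 4 controls, so neither the signs nor the next medians are independent evidence. Measured against control replicates 1 and 2 alone, the median log2 ratio was −0.41 for the genes that fell and 0.29 for those that rose. Measured against control replicates 3 and 4 it was −0.58 and 0.47. Leaving out each of the 8 libraries singly, 23 of the 136 genes passed every time, 18 lower and 5 higher, and leaving out each vial, 4 did: ATF3, CITED2, TIPARP and LENG8.

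Counting depth allowed small changes to be called. The median SE of the log2 fold change was 0.40 for genes with a mean below 10 counts, 0.21 between 10 and 100, 0.076 between 100 and 1000 and 0.055 between 1000 and 10000. Above 10000 counts it did not decrease further (0.064). The smallest change called was 1.55-fold between 10 and 100 counts and 1.13-fold between 1000 and 10000. Above 10000 counts, where 2 of 214 genes were called, it was 1.36-fold. Of the 120 well-counted genes that passed, 35 changed by less than 1.25-fold, 14 of them lower and 21 higher. Most well-counted genes moved little: for 80.4% of the 10493, the 95% interval of the change lay within 1.25-fold in either direction, and for 99.5% it lay within 2-fold. The median log2 fold change over all genes tested was −0.0047.

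Of the 12 genes that changed at least 2-fold, 9 fell and 3 rose, and only SERPINB2, CXCL8 and C11orf96 had a mean of 100 counts or more. CYP1A1, an AHR-induced cytochrome P450, had 13, 10, 27 and 15 counts in controls 1 to 4 and 2, 6, 4 and 2 counts at 0.1 µM. Every exposed library lay below every control, and the change was 4.52-fold (log2 fold change −2.17, SE 0.46, edgeR adjusted p = 0.0204). Its log2 fold change was −1.69 without control replicates 3 and 4. F2RL3, which encodes the thrombin receptor PAR4, had 65, 51, 90 and 72 counts in the controls and 36, 20, 24 and 14 at 0.1 µM (log2 fold change −1.56, SE 0.24, edgeR adjusted p = 0.00248). SERPINB2, the plasminogen activator inhibitor PAI-2, measured 18.5, 12.8, 39.4 and 32.6 CPM in the controls and 9.02, 6.96, 7.995 and 6.6 CPM at 0.1 µM (log2 fold change −1.75, SE 0.38, edgeR adjusted p = 0.0493). Its level was highest in control replicates 3 and 4, and without them the log2 fold change was −1.03. CXCL8 (interleukin-8) showed a like split: it measured 7.91, 7.34, 14.7 and 13.2 CPM in the controls and 5.66, 5.42, 3.97 and 5.28 CPM at 0.1 µM (log2 fold change −1.08, SE 0.24, edgeR adjusted p = 0.0411). Without control replicates 3 and 4 its log2 fold change was −0.59. IL11 fell from 5.24 ± 1.24 to 2.39 ± 0.706 CPM (SD, n = 4) and KRTAP2-3, a keratin-associated protein gene, from 0.948 ± 0.285 to 0.26 ± 0.119 CPM. COL13A1 (collagen XIII), FOXJ1 (a regulator of ciliary genes) and C11orf96 fell by 1.04, 1.14 and 1.32 on the log2 scale, and without control replicates 3 and 4 the change of COL13A1 was −0.63. With the vial as a block, SERPINB2, CXCL8 and C11orf96 did not pass (edgeR adjusted p = 0.0902, 0.0962 and 0.0554). The 3 genes that rose were NR6A1, an orphan nuclear receptor, with 9, 8, 5 and 6 counts in the controls and 22, 18, 20 and 22 at 0.1 µM (log2 fold change 1.53, SE 0.26, edgeR adjusted p = 0.00507), and NPIPB7 and NPIPB8, members of a family of near-identical copies (1.53 and 1.07 on the log2 scale). NR6A1 and IL11 were at 1.25 and −0.90 on the log2 scale without control replicates 3 and 4.

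Among the functional gene lists, immediate early genes held the most calls. All 23 members were tested, and 7 fell (FOSB, FOSL2, JUN, KLF4, IER3, ATF3 and MYC), beside 0.542% of all genes. None rose at an adjusted p of 0.05 by edgeR (0 rose at an unadjusted p of 0.05), and the median log2 fold change was −0.42 against −0.0047 for all genes. At an unadjusted p of 0.05, 15 of the 23 were lower, beside 7.79% of all genes lower and 7.57% higher at that level. Without control replicates 3 and 4 the median was −0.49, and again 15 members were lower at an unadjusted p of 0.05. The summed level of the list was 6262, 5653, 6034 and 5116 CPM in controls 1 to 4 and 5219, 4053, 4294 and 3764 CPM at 0.1 µM, so that the summed levels overlapped between vials although each exposed library lay below the control of its own vial. In bulk RNA, fewer cells that transcribe a gene and less RNA per cell cannot be told apart.

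Within AP-1, the dimeric factor built from FOS and JUN proteins, FOSB measured 639, 478, 574 and 403 CPM in controls 1 to 4 and 361, 266, 289.8 and 198 CPM at 0.1 µM. The groups did not overlap, although the levels differed between vials on both sides (log2 fold change −0.91, SE 0.18, edgeR adjusted p = 0.0383). With the vial as a block, a pairing assumed from the library numbers, the adjusted p by edgeR was 7.65e-07, the lowest of all alternative fits. By edgeR it was 0.1458 without control replicate 3 and 0.2492 without control replicates 3 and 4. The highest adjusted p of any alternative was 0.501. FOSB passed in 4 of the 8 fits that left out 1 library and in 1 of the 4 that left out a vial. JUN, its partner, measured 186, 186, 163 and 147 CPM in the controls and 119, 106, 121 and 107 CPM at 0.1 µM (log2 fold change −0.59, SE 0.095, edgeR adjusted p = 0.00639). Here control replicates 3 and 4 were the lower pair of controls, and the log2 fold change without them was larger in size, −0.72. FOSL2 fell by 0.26 on the log2 scale (1.2-fold), and its change was −0.15 without control replicates 3 and 4. ATF3, a stress-induced factor of the CREB family at chr1:212565407-212620777 (GRCh38.p14), measured 368, 329, 414 and 397 CPM in the controls and 256, 203, 209.8 and 195 CPM at 0.1 µM (log2 fold change −0.80, SE 0.095, edgeR adjusted p = 0.000778). The highest exposed library, vial 1, still lay below the lowest control, and without control replicates 3 and 4 the log2 fold change was −0.69.

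MYC, a growth-promoting transcription factor, measured 328, 319, 392 and 369.5 CPM in the controls and 271, 246, 235 and 266 CPM at 0.1 µM (log2 fold change −0.46, SE 0.065, edgeR adjusted p = 0.000778). Its change was −0.34 without control replicates 3 and 4. KLF4, a zinc-finger factor linked to growth arrest, fell from 35.3 ± 5.97 to 18.01 ± 5.63 CPM (log2 fold change −0.97, SE 0.19, edgeR adjusted p = 0.0245), with vial 1 highest in both groups. IER3, a stress-induced survival gene, measured 149, 153, 269.6 and 238 CPM in the controls and 126, 113, 107 and 114 CPM at 0.1 µM (log2 fold change −0.81, SE 0.16, edgeR adjusted p = 0.0357). In this case control replicates 3 and 4 were far above the other controls, the change without them was −0.39, and the blocked fit did not pass (edgeR adjusted p = 0.0813). NR4A3, an orphan nuclear receptor of the same list, did not pass (log2 fold change −0.94, SE 0.28, edgeR adjusted p = 0.153), vial 1 of the exposed group (68.03 CPM) overlapped the controls, and with the vial as a block it did (edgeR adjusted p = 0.0427).

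Of the genes that restrain MAP kinase signalling, most had estimates below 0 (15 of 17). Of 17 members tested, 3 fell (DUSP1, SPRY2 and PHLDA1), beside 0.542% of all genes, and none rose. By edgeR at an unadjusted p of 0.05, 12 were lower (8 without control replicates 3 and 4) and 0 higher, beside 7.79% and 7.57% of all genes. The median log2 fold change was −0.39 (−0.32 without control replicates 3 and 4). DUSP1, a phosphatase that inactivates MAP kinases, was the most abundant gene to change, with a mean of 22665 counts. It measured 1501, 1307, 1541 and 1405 CPM in the controls and 1246, 936, 1011 and 1021 CPM at 0.1 µM, a 1.36-fold difference (log2 fold change −0.45, SE 0.09, edgeR adjusted p = 0.0179). SPRY2, an inhibitor of receptor tyrosine kinase signalling, fell by 1.2-fold and PHLDA1 by 1.55-fold, the latter with a log2 fold change of −0.64 that was −0.41 without control replicates 3 and 4. ERRFI1, a feedback inhibitor of the EGF receptor, fell from 134 ± 5.81 to 115 ± 6.37 CPM, the smallest decrease called at 1.16-fold. The next 4 genes of like regulation, named after their values were seen, passed in each of the 8 fits that left out 1 library: MAFF (a small MAF factor), CSRNP1 (an AXIN-induced nuclear protein), PPP1R15A (GADD34, which reverses translational arrest) and CITED2 (a CBP/p300-binding factor) fell by 0.56, 0.50, 0.44 and 0.43 on the log2 scale.

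**Figure D2:**
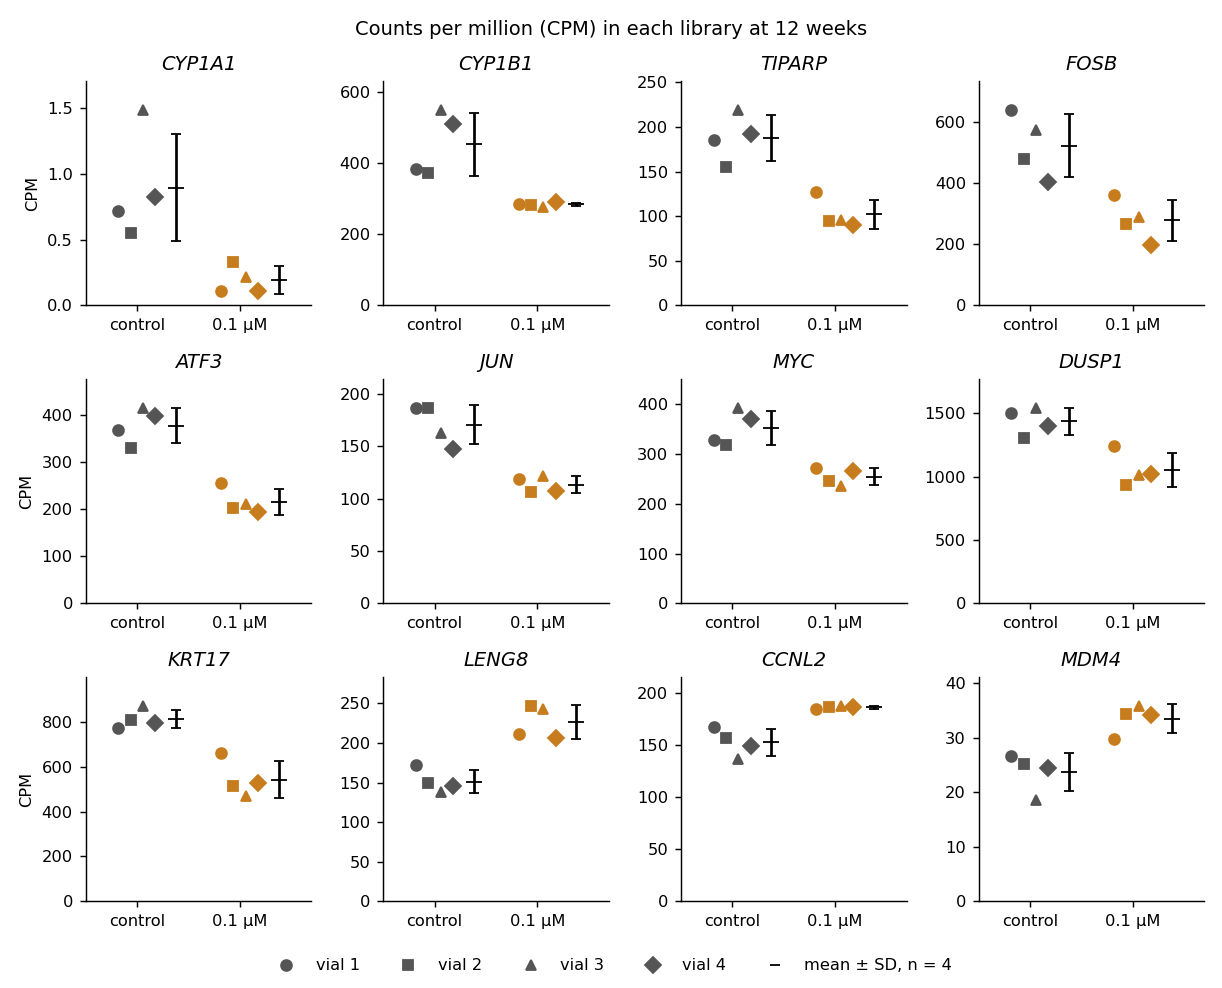
CPM in each library at 12 weeks for 9 genes that fell and 3 that rose (bottom right), with the symbol giving the vial and the bar the mean ± SD of 4 libraries. The vertical axes start at 0, and in every panel the exposed libraries lie wholly on one side of the controls (for DUSP1, 936 to 1246 CPM against 1307 to 1541).

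Of the AHR pathway, 10 of 11 listed members were tested. CYP1A1, CYP1B1 and TIPARP fell, beside 0.542% of all genes, none rose, and the median was −0.26 (−0.16 without control replicates 3 and 4). By edgeR at an unadjusted p of 0.05, 4 were lower (3 without control replicates 3 and 4) and 0 higher, beside 7.79% and 7.57% of all genes. The receptor itself, AHR, had a log2 fold change of −0.20 (95% interval −0.38 to −0.027, edgeR adjusted p = 0.264), and its partner ARNT had 0.029 (−0.066 to 0.12). TIPARP, a mono-ADP-ribosyltransferase that the receptor induces and that represses it, lies at chr3:156674590-156706770. It measured 185, 155, 219 and 192 CPM in the controls and 127, 94.96, 95.8 and 90.7 CPM at 0.1 µM (log2 fold change −0.88, SE 0.10, edgeR adjusted p = 0.000778), and −0.74 without control replicates 3 and 4. CYP1B1, an extrahepatic cytochrome P450 that hydroxylates estradiol, lies at chr2:38067509-38076151. It measured 385, 372, 549 and 510.2 CPM in the controls and 285, 284, 279 and 291 CPM at 0.1 µM (log2 fold change −0.67, SE 0.11, edgeR adjusted p = 0.0088). The 4 exposed libraries were nearly alike, the spread lay in the controls, and the change without control replicates 3 and 4 was −0.41. AHRR, the receptor's repressor, did not pass (log2 fold change 0.17, edgeR adjusted p = 0.506). ARNT and AHRR were named after their values were seen.

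The ligand-bound receptor and ARNT bind DNA at the core GCGTG. The 250 bases before the start of transcription are shown for the called members that RefSeq's promoter table (GRCh38.p14) holds, CYP1A1 (chr15:74725529-74725778, minus strand) and TIPARP (chr3:156674340-156674589, plus strand), so that these cores can be seen. Capitals mark GCGTG or its reverse complement CACGC.
CYP1A1: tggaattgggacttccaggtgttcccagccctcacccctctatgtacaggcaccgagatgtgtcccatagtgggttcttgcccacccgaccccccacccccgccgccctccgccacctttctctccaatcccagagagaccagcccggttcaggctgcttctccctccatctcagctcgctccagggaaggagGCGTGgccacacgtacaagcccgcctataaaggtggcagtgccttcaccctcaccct
TIPARP: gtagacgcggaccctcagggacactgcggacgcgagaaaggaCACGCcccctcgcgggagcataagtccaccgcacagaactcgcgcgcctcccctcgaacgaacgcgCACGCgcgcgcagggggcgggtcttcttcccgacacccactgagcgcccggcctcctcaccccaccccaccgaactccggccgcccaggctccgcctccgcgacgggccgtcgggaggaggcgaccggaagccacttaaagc
CYP1A1 held 1 match, starting at position −57 relative to the first transcribed base, and TIPARP held 2, at −208 and −142. Of all 27305 promoters in the table, 31.9% held a match in the same 250 bases, and of the 10361 promoters of genes tested 45.7% did, so the presence of a core describes these windows only.

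Some of the other abundant or strongly lowered genes belong to stress, metabolic and cytoskeletal groups. KRT17, a stress-induced keratin, measured 774, 809, 869 and 795 CPM in the controls and 660.5, 511, 467 and 528 CPM at 0.1 µM (log2 fold change −0.58, SE 0.084, edgeR adjusted p = 0.00199). CDKN1A (p21), which arrests the cell cycle, fell from 209 ± 26.4 to 141 ± 13.4 CPM (log2 fold change −0.56, SE 0.11, edgeR adjusted p = 0.0288). Its change was −0.41 without control replicates 3 and 4. In the glycolysis and hypoxia list 3 of 28 members fell, beside 0.542% of all genes, and none rose. By edgeR at an unadjusted p of 0.05, 12 were lower (4 without control replicates 3 and 4) and 0 higher. The members that fell, HK2 (hexokinase 2), SLC2A3 (a glucose transporter) and VEGFA (an angiogenic growth factor), changed by −0.54, −0.50 and −0.46 on the log2 scale, and the list's median was −0.11. HSPA1B, an inducible HSP70, fell from 349 ± 21.5 to 272 ± 23.9 CPM, with the reservation that its near-identical copy HSPA1A shares reads with it. ADAMTS1, a matrix protease needed for ovulation, showed a small and even decrease, from 342, 328, 339 and 313 CPM to 276, 263, 269.9 and 262 CPM (log2 fold change −0.30, SE 0.047, edgeR adjusted p = 0.0027). TSC22D1 and the glucocorticoid-induced TSC22D3 fell by 0.71 and 0.66, and the matricellular CCN3 by 0.68 on the log2 scale. TSC22D1 did not pass with the vial as a block (edgeR adjusted p = 0.0857), and without control replicates 3 and 4 its change was −0.35 and that of TSC22D3 −0.44.

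The genes that rose were less abundant (a median of 524.5 counts against 1016 for those that fell) and changed less. LENG8, a nuclear factor of mRNA processing and export at chr19:54449199-54462016, was the most highly counted. It measured 172, 149, 138 and 146 CPM in the controls and 211, 246, 243 and 206 CPM at 0.1 µM (log2 fold change 0.59, SE 0.079, edgeR adjusted p = 0.000778), and without control replicates 3 and 4 the change was 0.50. CCNL2, a cyclin of the splicing machinery, measured 168, 157, 137 and 149.6 CPM in the controls and 185, 187, 187 and 186 CPM at 0.1 µM (log2 fold change 0.29, SE 0.057, edgeR adjusted p = 0.0158). The exposed libraries were almost equal, and the controls spread downwards to replicate 3. The change of CCNL2 was 0.20 without control replicates 3 and 4. CDK5RAP3 rose by 1.13-fold, the smallest increase called, and did not pass with the vial as a block (edgeR adjusted p = 0.0515). MDM4, an inhibitor of p53, rose from 23.6 ± 3.5 to 33.5 ± 2.58 CPM (log2 fold change 0.50, SE 0.098, edgeR adjusted p = 0.0158), and NUAK2, a kinase of the AMPK family induced by YAP, from 27.5 ± 3.03 to 35.8 ± 2.52 CPM. MDM4 was at 0.37 on the log2 scale without control replicates 3 and 4. LIN28A, which blocks let-7 maturation, EME2 (a subunit of a DNA repair nuclease), GABRE (a GABA-A receptor subunit), SCNN1D (a sodium channel subunit), MAMDC4 and SAPCD1 rose by 0.46, 0.45, 0.48, 0.53, 0.74 and 0.64 on the log2 scale. Without control replicates 3 and 4 they were at 0.33, 0.33, 0.35, 0.38, 0.46 and 0.45 in the same order, and none passed by edgeR. Further RNA-binding or RNA-processing genes, named after their values were seen and not tested as a group, were NKTR, PNISR, SUGP2 and TIAL1, with 0.43, 0.27, 0.23 and 0.20.

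Several of the largest increases belonged to families of near-identical copies, among which reads cannot be assigned with certainty. NPIPB2 measured 9.46, 5.41, 4.93 and 7.5 CPM in the controls and 10.3, 11.9, 12.1 and 10.8 CPM at 0.1 µM (log2 fold change 0.73, SE 0.16, edgeR adjusted p = 0.0267). Of 12 NPIPB genes tested, 3 rose, beside 0.526% of all genes. The estimate was above 0 for all 12, with a median of 0.51 (0.38 without control replicates 3 and 4). Of 14 NBPF genes, 3 rose, beside the same 0.526%, and all 14 estimates were above 0 (median 0.23). AGAP9 rose from 9.52 ± 2.12 to 15.4 ± 1.64 CPM, and GOLGA6L9 and LOC107986800 rose by 0.49 and 0.59 on the log2 scale. GOLGA6L9 was at 0.28 without control replicates 3 and 4, and the median of the 3 GOLGA6L genes tested went from 0.48 to 0.20. Of 11 genes of a further such family, TBC1D3, 0 were called by edgeR, 8 estimates were above 0 and the median was 0.11. Since copies share reads, their estimates are not independent.

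Lists that describe granulosa cells, steroid synthesis and the cell cycle held 0 calls by edgeR at an adjusted p of 0.05, which at a share of 1.07% over all genes is not a result about lists of this size. Among 12 granulosa markers tested, 0 passed (1 at an unadjusted p of 0.05), the median was −0.11, and AMH (anti-Müllerian hormone) came nearest with a log2 fold change of 0.36 (SE 0.091, edgeR adjusted p = 0.0555). Of 16 steroidogenic genes, 0 passed (3 lower at an unadjusted p of 0.05, median −0.091). STAR, which moves cholesterol into mitochondria, had 36, 41, 49 and 43 counts in the controls and 31, 28, 48 and 16 at 0.1 µM, and its interval was wide (−1.02 to 0.11). HSD17B12 and POR, both well counted, had intervals of −0.24 to 0.0022 and −0.15 to 0.083. Of 32 cell cycle genes, 0 passed (3 higher and 3 lower at an unadjusted p of 0.05), with a median of 0.033, and for MKI67, a proliferation marker, the change was 0.15 (0.0043 to 0.30). CCND1 (cyclin D1), with 78015 to 133852 counts per library, had an interval of −0.21 to 0.31. The 5 genes of this paragraph that follow AMH were picked after their values were seen, as members that define their lists or were well counted.

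The other lists held few calls or none, and their counts stand beside 0.542% of all genes lower and 0.526% higher. Among chemokines, interleukins and NF-κB genes 2 of 18 members fell, among protease-activated receptors and plasminogen activators 2 of 12 (7 lower in each list at an unadjusted p of 0.05, and 3 and 2 without control replicates 3 and 4), among heat shock chaperones 1 of 14, among collagens 1 of 17 (COL13A1), among EGF-like ligands and receptors 1 of 5 (ERRFI1), and among YAP and TEAD targets 1 of 14 rose (NUAK2), while CCN1 and CCN2, which define that list, had log2 fold changes of −0.046 and −0.064. At an unadjusted p of 0.05 by edgeR, 5 of the 14 YAP and TEAD targets were higher and 0 lower. The median of that list was 0.064 (0.013 without control replicates 3 and 4). Of the 14 heat shock chaperones, 7 were lower at that level (4 without control replicates 3 and 4) and 0 higher. The lists of NRF2 targets (13 tested), PPAR alpha targets and fatty acid oxidation (15), prostaglandin genes (9), TGF-β family genes (24), stress and unfolded protein response (21), interferon-stimulated genes (17), metallothioneins (6) and mitochondrially encoded subunits (13) held 0 calls, and their medians ran from −0.35 for prostaglandin genes to 0.13 for mitochondrial subunits. At an unadjusted p of 0.05 by edgeR the same 8 lists held 4, 5, 3, 6, 6, 7, 0 and 1 members. All of these were lower except the 1 mitochondrial subunit, beside 7.79% of all genes lower and 7.57% higher at that level. Without control replicates 3 and 4, the lists held 2, 0, 0, 1, 4, 1, 0 and 0 lower members. Of 16 keratins and epithelial or mesenchymal genes, 14 matrix proteases and inhibitors and 20 CDK inhibitors, p53 targets and apoptosis genes, 1 each fell (KRT17, ADAMTS1 and CDKN1A). The FGF (8 tested), IGF (13), WNT (19), RGS and phosphodiesterase (13) and integrin and laminin (23) lists held 0 calls by edgeR. At an unadjusted p of 0.05 they held 0, 4, 2, 3 and 4 lower members and 0, 0, 1, 1 and 1 higher. Of markers of other cells of the ovary, 0 of 2 theca, 1 of 5 oocyte, 1 of 4 endothelial and 2 of 4 leukocyte genes had enough counts to be tested, and 0 were called by edgeR (1, of the oocyte, at an unadjusted p of 0.05). Liver transcripts had a median of −1.10 with 0 of 7 called, which turned to 0.077 without control replicate 3, the library with most of their counts.

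The called genes differed in gene structure, which the test did not use. Canonical transcripts (GENCODE v44, GRCh38) were matched for all 69 genes that fell and 64 of the 67 that rose. Genes that fell had a median of 3 exons and those that rose 12.5, beside 9 for all genes tested. At most 4 exons were present in 65.2% of the genes that fell, 9.38% of those that rose and 20.2% of all. JUN and RHOB, for example, consist of 1 exon and IER3 of 2, whereas LENG8 has 16 and NKTR 17. The genomic span was shorter for genes that fell (median 8619 bases) than for all genes (27640), and 19463 for those that rose. The GC content of the transcripts was 50.1% in the genes that fell, 51.9% in those that rose and 48.4% overall.

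A slight gradient with exon number ran through all well-counted genes. The median log2 fold change was −0.048 over the 1838 genes with 1 to 4 exons, −0.026 over 3393 with 5 to 9, −0.0030 over 2260 with 10 to 14 and 0.034 over 2927 with 15 or more. The share of genes with an estimate below 0 decreased in the same order from 65.8% to 34.4%. Without control replicates 3 and 4 the medians were −0.028, −0.015, −0.0042 and 0.012. Of the calls among well-counted genes, 40 of the 44 in the class with fewest exons were lower, and 23 of the 26 in the class with most were higher. Among all 10493 well-counted genes, 60 were called lower and 60 higher (1.14% together). These calls come from the fit with all controls, and only 6 genes of any class passed without control replicates 3 and 4.

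**Figure D3:**
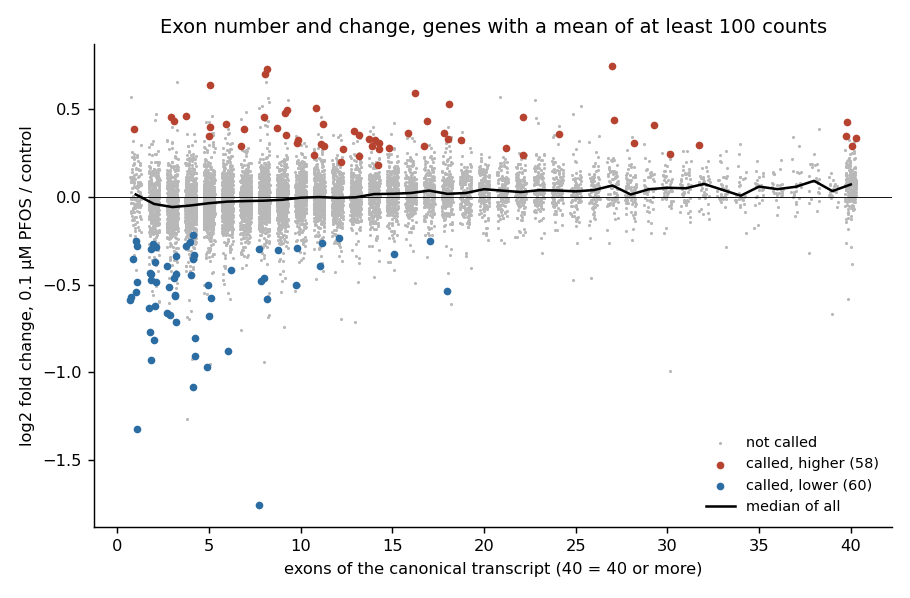
Log2 fold change of 0.1 µM PFOS over control (vertical) against the number of exons of the canonical transcript (horizontal, 40 standing for 40 or more), for genes with a mean of at least 100 counts. The black line is the median per exon number, and the 60 blue (lower) genes gather at few exons while the 58 matched red (higher) genes spread over many.

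The same dose had also been sampled after 6 weeks, against controls of that age, and libraries of one number at the 2 times were taken to descend from one vial. At 6 weeks 544 of 12836 genes, or 4.24%, passed. Of the 136 genes called at 12 weeks, 110 had the same sign at 6 weeks, beside 54.4% of all genes tested at both times. Calls at both times numbered 28, which is 20.6% of the 12-week calls and 5.15% of the 6-week calls, with 18 lower at both, 8 higher at both and 2 (DUSP1 and ZFP36L1, the latter an mRNA decay factor) opposite. TIPARP was lower at both times (−0.55 at 6 weeks and −0.88 at 12), as were CYP1B1 (−0.34 and −0.67) and HK2 (−0.40 and −0.54), and LENG8 was higher at both (0.22 and 0.59).

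The difference between the 2 times was tested as an interaction over all 32 libraries. It passed for 27 of 12988 genes (0.208%), of which 16 were also called at 12 weeks, 14 of them lower and 2 higher. The difference passed for 4 of the 23 immediate early genes (ATF3, JUN, KLF6 and MYC) and 2 of the 17 feedback genes (DUSP1 and PHLDA1). The log2 fold change went from 0.19 at 6 weeks to −0.59 at 12 weeks for JUN (edgeR adjusted p of the difference = 0.00244), from −0.084 to −0.80 for ATF3 (0.0025), from 0.26 to −0.45 for DUSP1 (0.00303) and from −0.019 to −0.46 for MYC (0.00516). Over the 23 immediate early genes the median was −0.012 at 6 weeks and −0.42 at 12 weeks, and over the 17 feedback genes 0.012 and −0.39. COL13A1 lay at −0.035 and −1.04, and NR6A1 at −0.40 and 1.53. For TIPARP, CYP1B1 and CYP1A1 the difference between times did not pass (edgeR adjusted p = 0.264, 0.254 and 0.269). With the vial as a block 41 genes passed, without control replicates 3 and 4 at 12 weeks 11, without control replicates 1 and 2 instead 942, and without vials 1 to 4 in turn 48, 14, 9 and 1.

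**Figure D4:**
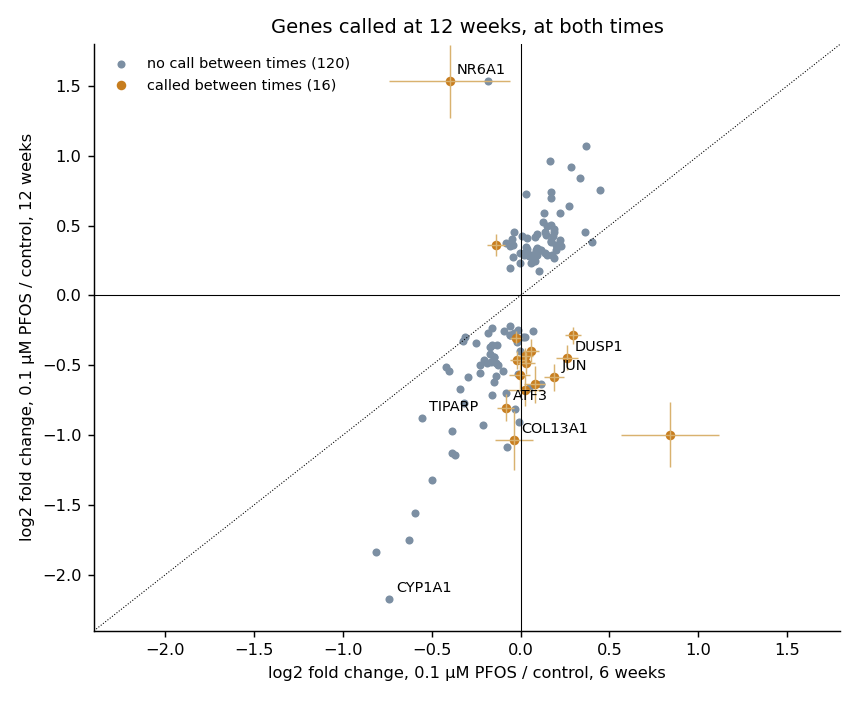
Log2 fold change of 0.1 µM PFOS over control at 12 weeks (vertical) against that at 6 weeks (horizontal) for the 136 genes called at 12 weeks, with the dotted line where both are equal. The 16 orange genes, with bars of 1 SE, differed between the times, and JUN, for example, lies at 0.19 at 6 weeks and −0.59 at 12 weeks.

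Next to the other doses at 12 weeks, which were compared with the same 4 controls, the called genes had these values. TIPARP measured a log2 fold change of −0.30 at 0.01 µM, −0.88 at 0.1 µM and −0.97 at 1 µM. In the same order CYP1B1 had −0.36, −0.67 and −0.73, KRT17 −0.36, −0.58 and −0.68, and LENG8 0.15, 0.59 and 0.61. MYC had −0.24, −0.46 and −0.26, and JUN −0.093, −0.59 and −0.34. The numbers of genes that passed were 0 at 0.01 µM (1080, or 8.48%, at an unadjusted p of 0.05 by edgeR), 136 at 0.1 µM and 28 (0.22%) at 1 µM. Compared directly, 1 and 0.1 µM differed for 0 of 12742 genes by edgeR, with 984 (7.72%) at an unadjusted p of 0.05 and 1 gene when the vial was a block. For ATF3 the difference of 1 from 0.1 µM was 0.30 (SE 0.095), for DUSP1 0.28 (SE 0.09) and for TIPARP −0.09 (SE 0.11).

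Of 11 genes that the study singles out at 12 weeks, F2RL3 and CYP1A1 were named as differing from control at both 0.1 and 1 µM. The others were named for a trend across the doses, which the contrast of 0.1 µM with control does not test. Of all 11, chosen on these samples and so no independent evidence, 5 fell (CYP1A1, CYP1B1, TIPARP, F2RL3 and KRT17) and 6 did not pass, NR4A3 among them. Most of the latter had few counts. ASPG, an asparaginase gene, had 15, 11, 6 and 6 counts in the controls and 22, 20, 27 and 25 at 0.1 µM, which did not overlap (log2 fold change 1.29, SE 0.32, edgeR adjusted p = 0.0536). SFRP1, a secreted WNT antagonist, was at 6 to 12 counts in every library (log2 fold change −0.74, SE 0.31, edgeR adjusted p = 0.271). For TTPA, KLHL3 and LOC124907854 the log2 fold changes were 0.44, 0.38 and 0.47, and the groups overlapped for the former pair.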

How the data were processed

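RNA from 4 libraries per group was sequenced on DNBSEQ from stranded poly(A) libraries. Per the submitters' processing notes, HISAT2 2.0.4, Bowtie2 2.2.5 and RSEM 1.2.8 were used with GRCh38.p14. The authors deposited RSEM expected counts per gene, which were rounded to whole numbers here and are the values tested. The authors also deposited TPM (transcript levels per length, scaled to a fixed total), which were averaged per group as a check of level and not tested, and tables of normalized counts and FPKM that were not used. Of 47137 entries, 18583 had values. CPM were computed from the counts on library totals scaled by TMM over all 32 libraries. No pseudocount was used, except 1 added before log2 for correlations.

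Genes were tested with edgeR 4.0.16 (filterByExpr, TMM, robust quasi-likelihood) in R 4.3.3, fitting the 16 libraries at 12 weeks together, with Benjamini-Hochberg adjustment at 0.05. SE is the absolute log2 fold change divided by the square root of F, and intervals are 95%. The difference between 12 and 6 weeks was an interaction over 32 libraries. The script was tested on simulated data. DESeq2 1.42.0, other filters, scalings and sample sets, the vial as a block, and each library and vial left out were alternatives. Python 3.11.15 with pandas 2.3.3 and scipy 1.17.1 was used for the summaries. p-values measure the spread between libraries within the groups fitted, all of 1 cell line, and the main fit had no term for the vial. Depth (18042991 to 18553348 counts per library) limits precision for genes with few counts.

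The members and gene lists were chosen with earlier results of these data known. Named genes are all called genes of at least 2-fold, the 12 largest increases and 12 largest decreases under 2-fold among well-counted genes, the 3 with the highest counts in each direction, called members of the gene lists, and genes that the study names at 12 weeks. Any other gene named, cell markers and single examples included, was chosen after its values were seen. A few results are not reported here. The labels give numbers of biological replicates and do not name vials, which the methods of the study describe. Libraries of one number were taken to come from one vial, and the vial served as a block in an alternative. Deviations of same-numbered control and exposed libraries from their group means correlated at 0.0344, 0.0814, -0.084 and 0.161.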

Additional observations from a re-analysis of the deposited data

Results flagged for a closer look

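In 124 groups of 4 libraries, the highest or lowest library was compared with the others by Dixon's criterion at 95%, by which chance alone marks about 1 in 20 groups, and 4 were marked. TIPARP in the exposed library of vial 1 was at 127 CPM, against 90.7 to 95.8 in the other exposed libraries. NR4A3 in the same library was at 68.0 CPM, against 25.97 to 33.2. SFRP1 in control replicate 1 was at 0.609 CPM, against 0.657 to 0.662 in the other controls, a gap of about 1 count. The summed liver transcripts in control replicate 3 came to 1737 counts, against 417 to 531.

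The change at 0.1 µM PFOS differed between 12 and 6 weeks, by the interaction test of edgeR, for the 11 genes given here. The log2 fold change at 12 weeks minus that at 6 weeks was −0.78 for JUN, −0.72 for ATF3, −0.71 for DUSP1, −0.45 for MYC and −0.28 for ADAMTS1. It was −0.58 for ZFP36L1, −0.46 for CITED2, −0.71 for CCN3, −0.72 for PHLDA1, −1.0 for COL13A1 and 1.93 for NR6A1.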

How the results depend on the processing

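Beside the 136 calls, DESeq2 gave 303 calls on the 8 libraries and 278 on 16, the fit of all 32 libraries 540, and the fit without control replicates 3 and 4 or 1 and 2 (chosen after seeing the data) 6 and 1251. Leaving out 1 library or vial gave 4 to 315. Beside the 12 calls of at least 2-fold, 6 were made with the 8 libraries alone, 5 with DESeq2 on them, 24 with all 32, 7 with at least 10 counts in every library, 0 and 73 without control replicates 3 and 4 or 1 and 2, and 0 to 20 without 1 library or vial. For the 117 well-counted genes under 2-fold the counts were 290 and 249 with DESeq2 on 8 and 16 libraries, 487 with all 32, 6 and 1123 without control replicates 3 and 4 or 1 and 2, and 4 to 287 without 1 library or vial. The difference between times, 27 genes, became 15 with no filter, 41 with the vial block, 11 and 942 without control replicates 3 and 4 or 1 and 2 at 12 weeks, and 1 to 48 without 1 vial. The vial block gave 171 calls at 12 weeks, retaining 126 of the 136, and 1 gene between 1 and 0.1 µM in place of 0. Size factors gave 135 calls and no filter 134. Over the named genes 856 values stayed on their side of the threshold with the same direction, 405 lost the call, 10 gained it and 1 reversed: TTPA, not called, at −0.10 without control replicates 3 and 4. The cause of these shifts was not tested. Depth limits genes under 100 counts most.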
